A study of Mus musculus with 12 samples.

Results

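Serotonin and histamine are monoamines that gut endocrine cells make, pack into granules and release. The 9 genes followed here carry the steps of that route in the mouse. Tph1 and Tph2 encode the tryptophan hydroxylases that start serotonin synthesis, Hdc the histidine decarboxylase that makes histamine, and Ddc the decarboxylase that turns 5-hydroxytryptophan into serotonin. Slc18a1 and Slc18a2 encode the vesicular monoamine transporters, Maoa and Maob the monoamine oxidases, and Lmx1a a LIM homeodomain transcription factor. The 9 were taken by gene symbol, for these known roles, from the 23420 genes of the deposited count table, and 8 of them were among the 15369 genes with enough counts to be tested. Tph2 was the exception.

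Pylorus, the outlet of the stomach, was sequenced in bulk from mice on the C57BL/6 background. The 4 groups were CEA424-SV40 T Ag transgenic mice at 60 days of age (D60), wild-type mice at D60, transgenic mice at 80 days (D80) and wild-type mice at D80, with 3 libraries in each. Libraries are named by age, genotype (SV for transgenic, WT for wild-type) and number, as in D80SV2. The transgene expresses the simian virus 40 T antigen from a carcinoembryonic antigen promoter, so that any cell in which this promoter is active can express it, and the labels name no treatment in any group. They do not say whether the 3 libraries of a group came from separate animals, so p-values measure the spread between libraries, which may be technical.

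In the stomach and intestine, enterochromaffin cells make serotonin, through Tph1, and signal to nerves and muscle. Enterochromaffin-like cells make histamine, through Hdc, when gastrin reaches them, and this histamine drives acid secretion by parietal cells. Mast cells make histamine as well, and in rodents also serotonin. Serotonin of the brain and of enteric neurons starts from Tph2 instead.

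Promoter sequence is shown for the 4 genes with the largest fold changes at D80 among those with a RefSeq window on GRCm38.p6. All 4 were higher in transgenic libraries at D80, while at D60 the Slc18a2 difference did not pass the test given below. Each line runs 5′ to 3′ on the gene's strand, from 250 bases before to 50 bases after an annotated start of transcription, so that it reaches just past the beginning of the first exon. Capitals mark matches, on either strand, to TAATTA (a homeodomain core), TGACG (a site of CREB-type factors), TATAAA (the TATA box), GGGCGG (the GC box of Sp factors) and CAGCTG (an E-box). The windows are chr7:46667328-46667627 on the minus strand for Tph1, chr2:126618629-126618928 on the minus strand for Hdc, chr19:59260628-59260927 on the plus strand for Slc18a2 and chr1:167689308-167689607 on the plus strand for Lmx1a.
Tph1: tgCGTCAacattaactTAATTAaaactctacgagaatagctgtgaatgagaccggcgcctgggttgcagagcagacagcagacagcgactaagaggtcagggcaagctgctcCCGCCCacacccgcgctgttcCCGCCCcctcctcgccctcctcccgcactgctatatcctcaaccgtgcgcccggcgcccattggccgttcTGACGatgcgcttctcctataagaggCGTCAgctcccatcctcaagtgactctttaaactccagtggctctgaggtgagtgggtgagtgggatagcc
Hdc: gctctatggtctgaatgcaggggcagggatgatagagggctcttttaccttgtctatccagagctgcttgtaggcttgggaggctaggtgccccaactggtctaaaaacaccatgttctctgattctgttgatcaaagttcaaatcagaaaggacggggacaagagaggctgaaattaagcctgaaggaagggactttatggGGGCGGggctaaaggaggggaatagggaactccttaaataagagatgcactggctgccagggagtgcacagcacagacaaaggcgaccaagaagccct
Slc18a2: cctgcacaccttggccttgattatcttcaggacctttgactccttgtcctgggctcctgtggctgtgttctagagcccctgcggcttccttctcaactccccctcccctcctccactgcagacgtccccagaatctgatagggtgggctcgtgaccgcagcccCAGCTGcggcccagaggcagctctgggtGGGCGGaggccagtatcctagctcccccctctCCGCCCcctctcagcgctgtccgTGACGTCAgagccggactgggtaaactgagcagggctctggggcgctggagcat
Lmx1a: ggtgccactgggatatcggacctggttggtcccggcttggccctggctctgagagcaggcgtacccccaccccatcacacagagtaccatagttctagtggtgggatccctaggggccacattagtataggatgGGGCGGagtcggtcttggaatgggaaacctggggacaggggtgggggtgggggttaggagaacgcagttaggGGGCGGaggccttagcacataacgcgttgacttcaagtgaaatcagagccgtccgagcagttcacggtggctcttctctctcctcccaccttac

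The Tph1 window shown, 1 of 2 annotated, held 1 TAATTA, 3 TGACG and 2 GGGCGG. It was chosen with the matches of both known, and the other, which lies upstream (chr7:46672488-46672787), held 0 TAATTA, 1 TGACG and 0 GGGCGG. Which start is used was not measured. The Slc18a2 window held 2 TGACG, which are a single TGACGTCA read on both strands, beside 2 GGGCGG and 1 CAGCTG. The Hdc window held 1 GGGCGG and the Lmx1a window 2. Across 32851 RefSeq windows of the same length, 5.29% held TAATTA, 20.8% TGACG, 13.6% TATAAA, 35.7% GGGCGG and 16.3% CAGCTG. RefSeq windows were given for 7 of the 9 genes, 9 windows in all, of which 4 held TGACG and 1 held TAATTA. A match describes letters in the window and is not a measured binding site.

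Total counts per library ran from 20121600 to 27633715. The stomach origin was visible in the summed level of 10 pit cell markers, from 38130 to 221827 CPM (counts per 1e6 of a library's counts, after TMM scaling for composition). Duodenal transcripts from the neighbouring bowel varied most in D80 wild-type libraries, where the summed level of 12 enterocyte markers was 426, 2878 and 12604 CPM in D80WT1, D80WT2 and D80WT3. By Xist and Y-linked transcripts, the D60 transgenic libraries were all of female type and the D60 wild-type libraries all of male type, so genotype and sex cannot be told apart at D60. At D80, D80SV1 was of male type and all other libraries of both genotypes were of female type. D80SV1 thus came from a different animal than D80SV2 and D80SV3. In wild-type mice, age and sex cannot be told apart either, with the D60 libraries of male type and the D80 libraries of female type. At D80, 10 of 10 smooth muscle markers and 9 of 10 pit cell markers were called lower in transgenic libraries (edgeR, adjusted p below 0.05). Among all genes tested, 22% were called lower there. In bulk tissue, a change in the number of cells of a type and a change in RNA per cell cannot be told apart.

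Genes for making and packing the amines were higher in transgenic pylorus, and neither oxidase gene passed as higher. At D60, Tph1, Hdc, Ddc, Slc18a1 and Lmx1a rose and none fell, 5 of 8 tested, where 3.9% of all genes tested passed the threshold (3.66% higher, 0.241% lower; edgeR quasi-likelihood test, adjusted p below 0.05). At D80, those 5 and Slc18a2 rose and Maob fell, 7 of 8, where 41.3% of all genes passed (19.4% higher, 22% lower). Between D80 and D60 within transgenic mice the same 6 genes rose and Maob fell, where 35.7% of all genes passed (17.7% higher, 18% lower); this comparison and the one at D80 share the D80 transgenic libraries. Scaling moved the background. With no composition factor all D80 genotype fold changes shifted by a median of 0.42 on the log2 scale, and 83.6% of calls were higher in transgenic libraries (63% with upper-quartile factors), against 46.8% in the fit reported, while the calls of the 8 genes at D60 and D80 were the same. For D80 against D60 in transgenic mice the shift was 0.37, and 82.4% of calls were higher, against 49.6%. The median log2 fold change of the 8 genes was 2.06 at D60 and 2.52 at D80, and that of all genes was -0.004 and -0.074. The count of all genes called at D60 was 599, and it was 378 without D60WT3 and 388 without D60SV2. With sex as a covariate it was 85, and 3 of the 8 genes, Tph1, Hdc and Lmx1a, passed at D60. The sex term rests on D80SV1, the sole library whose type differs from the others of its group, so every value given with sex as a covariate depends on that library. For the age comparison within transgenic mice the count was 5490, and 3507 without D80SV2.

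The CPM of the groups did not overlap for 7 of the 8 genes in each of these 3 comparisons, 6 higher and 1 (Maob) lower, and Maoa overlapped in all 3. Among all genes tested, 12.2% did not overlap and were higher in transgenic libraries at D60 and 7.84% lower. At D80 these shares were 24.4% and 26.1%, and for D80 against D60 in transgenic mice 30.6% and 28%. The plot of levels by library shows these separations.

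**Figure D1:**
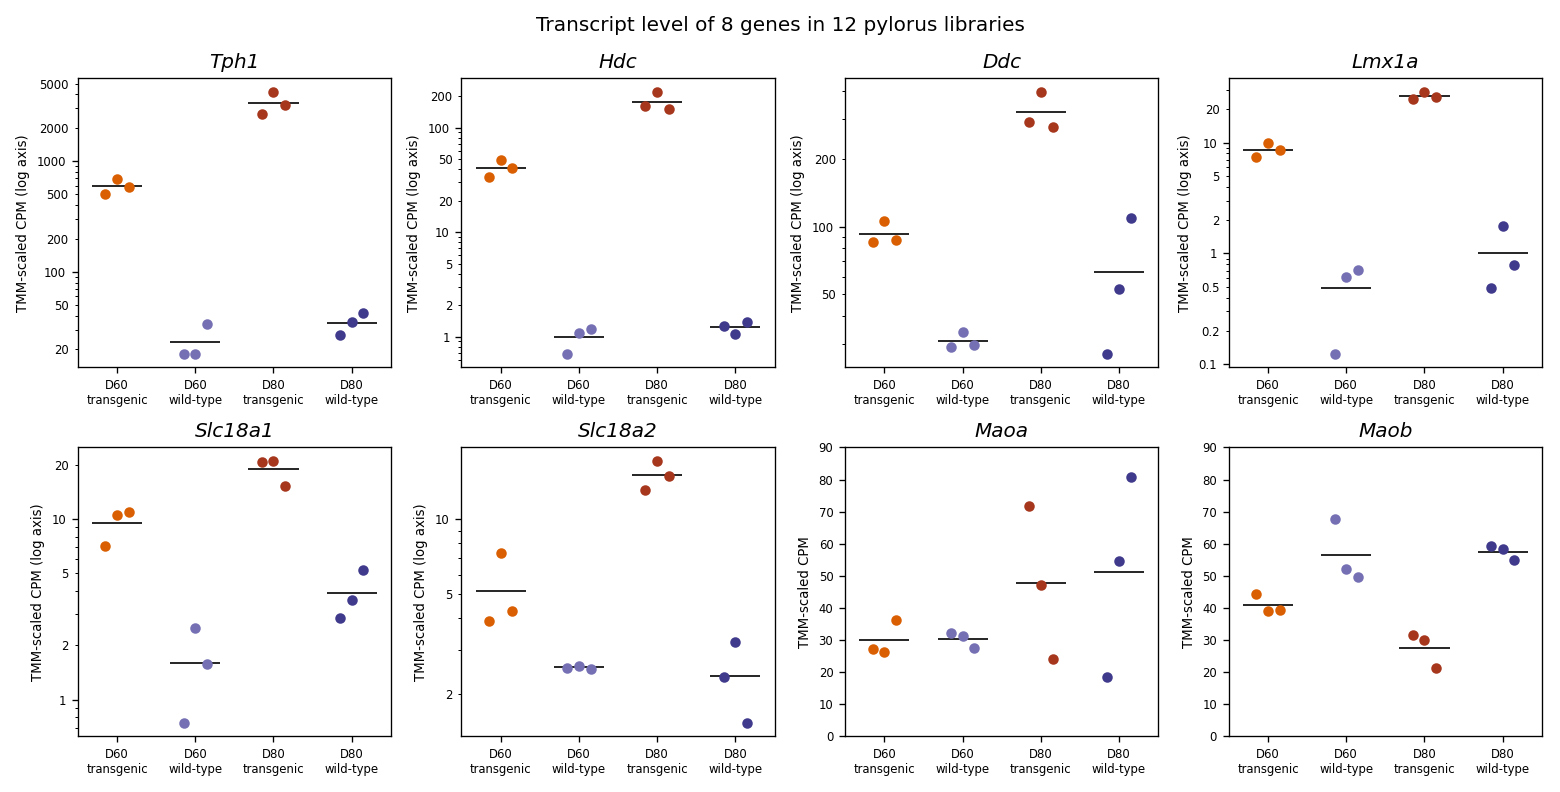
CPM of the 8 tested genes in each of the 12 libraries, by group, with a line at the mean of 3 libraries; the axis is logarithmic except for Maoa and Maob, which start at 0. The transgenic libraries of Tph1, Hdc and Lmx1a lie above every wild-type library at both ages, and the Maoa groups overlap.

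Tph1 had the highest CPM of the 9 in every transgenic library, though not in wild-type libraries. At D60 it stood at 507, 685 and 581 CPM in transgenic libraries, against 18.2, 18.0 and 33.9 CPM in wild-type libraries. At D80 it stood at 2689, 4253 and 3207 CPM in transgenic libraries, against 26.8, 34.9 and 42.6 CPM in wild-type libraries. All 6 transgenic libraries were above all 6 wild-type libraries, and the D80 transgenic libraries were above the D60 ones. The rise was 25.3-fold at D60 (log2 fold change 4.66, SE 0.32, adjusted p = 1.5e-05) and 97.4-fold at D80 (6.61, SE 0.35, adjusted p = 2.9e-07). By count, Tph1 ranked 9 to 14 among all genes in D80 transgenic libraries and 126 to 232 in D60 transgenic libraries, against ranks 4743 to 7683 in wild-type libraries. Tph2, the neuronal hydroxylase, had 0 counts in the 3 D60 transgenic libraries and 2 counts in all in D60 wild-type libraries. At D80 it had 3 counts in all in transgenic and 1 in wild-type libraries, so both genotypes were at the floor of 3 counts and no fold change is given. Per kilobase of exon, Tph1 made up at least 98.78% of the pair's counts in every library.

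Hdc had the largest fold change of the 8 tested genes at both ages. At D60 it stood at 34, 49.1 and 41.1 CPM in transgenic libraries, against 0.679, 1.08 and 1.19 CPM in wild-type libraries. By D80 the values were 161, 221 and 150 CPM in transgenic libraries, against 1.26, 1.06 and 1.39 CPM in wild-type libraries. The genotypes did not overlap at either age, and Hdc in wild-type pylorus rested on 11 to 32 counts per library. The rise was 41.2-fold at D60 (log2 fold change 5.37, SE 0.25, adjusted p = 6.6e-07) and 143-fold at D80 (7.16, SE 0.25, adjusted p = 7.1e-08).

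Ddc, shared by serotonin and catecholamine synthesis, rose less. At D60 it stood at 85.0, 106 and 87.2 CPM in transgenic libraries, against 29.1, 34 and 29.7 CPM in wild-type libraries. The D80 values were 290, 398 and 277 CPM in transgenic libraries, against 27.1, 52.6 and 109 CPM in wild-type libraries. The genotypes were apart at both ages, and the D80 wild-type libraries had the widest spread as a ratio of highest to lowest. The rise was 3-fold at D60 (log2 fold change 1.58, SE 0.38, adjusted p = 0.037) and 5.11-fold at D80 (2.35, SE 0.38, adjusted p = 0.00069). The D60 call was lost with limma-voom (adjusted p = 0.062), with sex as a covariate (1.36, adjusted p = 1) and without D60WT1, D60WT2 or D60WT3 (adjusted p = 0.14, 0.088 and 0.15), D60SV1, D60SV2 or D60SV3 (0.059, 0.13 and 0.089), D80WT2 (0.052), or D80SV1 or D80SV3 (0.054 and 0.061). Without D80WT3, the library with the most duodenal transcripts, the log2 fold change at D80 was 3.01, and without D80WT3 and D80SV1, the library with the most pancreatic transcripts, it was 3.08.

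Both vesicular transporters were scarce at the transcript level. Slc18a1, the form of rodent enterochromaffin cells, stood at 7.08, 10.5 and 10.9 CPM in D60 transgenic libraries, against 0.741, 2.5 and 1.57 CPM in D60 wild-type libraries. At D80 it stood at 20.7, 21.1 and 15.2 CPM in transgenic libraries, against 2.84, 3.57 and 5.24 CPM in wild-type libraries. The genotypes did not overlap at either age, and Slc18a1 rose 5.82-fold at D60 (log2 fold change 2.54, SE 0.37, adjusted p = 0.0018) and 4.88-fold at D80 (2.29, SE 0.35, adjusted p = 5e-04). With sex as a covariate the D60 call was lost (2.73, adjusted p = 0.14).

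Slc18a2, the form of rodent enterochromaffin-like cells and of neurons, stood at 3.90, 7.29 and 4.3 CPM in D60 transgenic libraries, against 2.53, 2.59 and 2.52 CPM in D60 wild-type libraries. Its D80 levels were 13.1, 17.2 and 14.9 CPM in transgenic libraries, against 2.32, 3.22 and 1.52 CPM in wild-type libraries. The genotypes did not overlap, but at D60 the difference did not pass the test (log2 fold change 1.02, SE 0.30, adjusted p = 0.097; 0.024 with DESeq2). At D80 the rise was 6.4-fold (2.68, SE 0.30, adjusted p = 4.9e-05). Per kilobase of exon, Slc18a1 made up 68.2%, 63.0% and 75.0% of the pair in D60 transgenic libraries, against 25.7%, 53.2% and 42.4% in D60 wild-type libraries. At D80 its share was 65.0%, 59.2% and 54.6% in transgenic libraries, against 59.2%, 56.7% and 80.3% in wild-type libraries. The shares were apart at D60 and overlapped at D80. The exons of Slc18a2 overlap those of Gm29261, a gene on the opposite strand, over 99 bases, and how the counting treated strand was not stated.

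The oxidase genes gave a different picture. Maoa, which prefers serotonin, stood at 27.2, 26.4 and 36.1 CPM in D60 transgenic libraries, against 32.2, 31.4 and 27.5 CPM in D60 wild-type libraries. At D80 it stood at 71.6, 47.3 and 24.1 CPM in transgenic libraries, against 18.6, 54.5 and 80.9 CPM in wild-type libraries. The genotypes overlapped at both ages, with log2 fold changes of -0.02 (95% interval -1.01 to 0.97, adjusted p = 0.99) and -0.11 (-1.09 to 0.88, adjusted p = 0.87), so that changes of nearly 2-fold either way lie within the intervals. The sign of the Maoa value at D80 depended on the scaling (0.07 with upper-quartile factors and 0.34 with no composition factor), as it did at D60 (0.02 and 0.08). Maob, which handles trace amines and dopamine, stood at 44.5, 39.2 and 39.3 CPM in D60 transgenic libraries, against 67.7, 52.1 and 49.6 CPM in D60 wild-type libraries. The levels at D80 were 31.5, 29.9 and 21.4 CPM in transgenic libraries, against 59.2, 58.5 and 54.8 CPM in wild-type libraries. Every transgenic library was below every wild-type library, and the difference passed the test at D80 (log2 fold change -1.06, SE 0.16, adjusted p = 0.00042) but not at D60 (-0.46, SE 0.16, adjusted p = 0.17). Smooth muscle transcripts were lower beside Maob, with summed levels of 2941 to 3087 CPM in D80 transgenic libraries, against 12090 to 19774 CPM in D80 wild-type libraries; their part in the Maob result was not tested. Both oxidase genes lie on the X chromosome, and with sex as a covariate Maob at D80 had a log2 fold change of -1.17 (adjusted p = 0.00078).

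Maoa and Ddc in D80 wild-type libraries followed the duodenal transcripts, low in D80WT1 and high in D80WT3, and so did Slc6a4, the plasma membrane serotonin transporter of enterocytes, at 0.447, 7.81 and 13.8 CPM in D80WT1, D80WT2 and D80WT3. Tph1 (26.8, 34.9 and 42.6 CPM) and Slc18a1 (2.84, 3.57 and 5.24 CPM) rose in the same order. Hdc, Slc18a2, Maob and Lmx1a did not. In D80 transgenic libraries the summed duodenal level was 3442, 3864 and 1601 CPM, and Slc6a4 stood at 6.22, 4.57 and 2.51 CPM. The part of duodenal tissue in these levels was not tested. The plot against duodenal transcripts places Ddc, Maoa and Slc6a4 of each library beside its summed duodenal level.

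**Figure D2:**
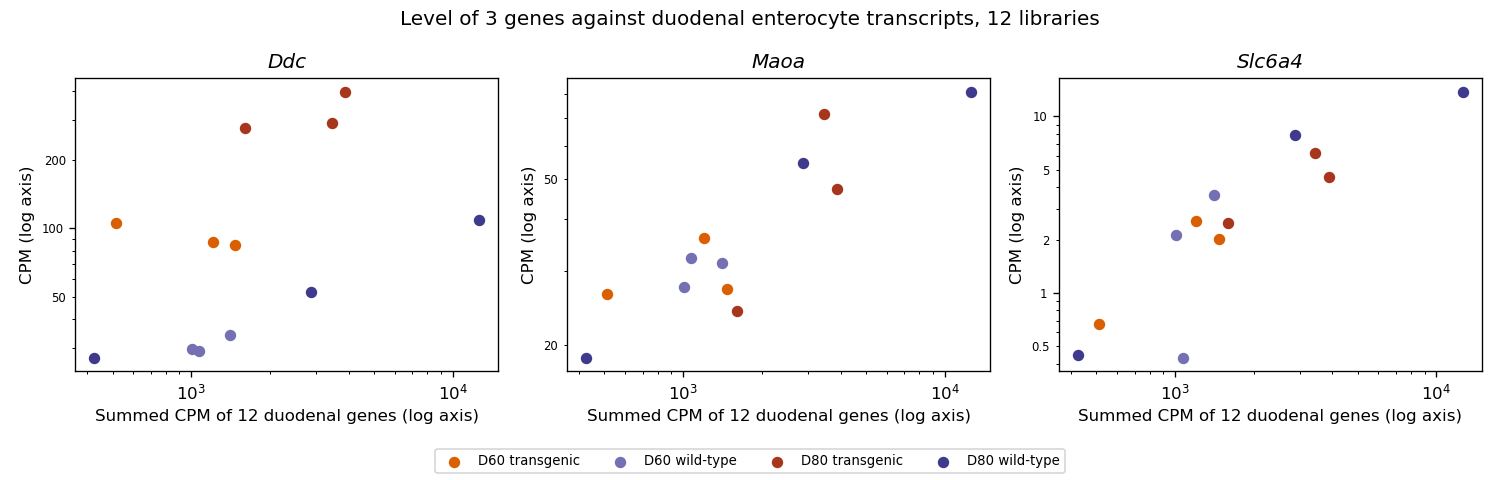
CPM of Ddc, Maoa and Slc6a4 against the summed CPM of 12 duodenal enterocyte markers in each of the 12 libraries, both axes logarithmic, 1 point per library and 1 colour per group. Maoa and Slc6a4 are highest in the D80 wild-type library with the summed duodenal level of 12604 CPM, while Ddc is highest in the D80 transgenic libraries.

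Lmx1a acts upstream of Tph1 in enterochromaffin cells of the mouse intestine, and it also acts in dopamine neurons of the midbrain. Lmx1a was nearly silent in wild-type pylorus. At D60 it stood at 7.40, 9.96 and 8.56 CPM in transgenic libraries, against 0.123, 0.612 and 0.714 CPM in wild-type libraries. At D80 it stood at 25.0, 29.0 and 25.8 CPM in transgenic libraries, against 0.488, 1.76 and 0.780 CPM in wild-type libraries. The genotypes were far apart at both ages, and the wild-type values rested on 2 to 40 counts per library. The rise was 17-fold at D60 (log2 fold change 4.09, SE 0.48, adjusted p = 0.00033) and 26.3-fold at D80 (4.72, SE 0.45, adjusted p = 1.4e-05). Without D80WT2, the highest wild-type library, the log2 fold change at D80 was 5.38.

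Within transgenic mice, D80 against D60, Tph1 rose 5.73-fold (log2 fold change 2.52, SE 0.29, adjusted p = 0.00022) and Hdc 4.27-fold (2.10, SE 0.19, adjusted p = 9.9e-05). Ddc rose 3.47-fold (1.79, SE 0.37, adjusted p = 0.0042), Lmx1a 3.08-fold (1.62, SE 0.38, adjusted p = 0.0072) and Slc18a2 2.92-fold (1.54, SE 0.29, adjusted p = 0.0023). Slc18a1 rose 2-fold (log2 fold change 1, SE 0.34, adjusted p = 0.037), a call lost with sex as a covariate (0.94, adjusted p = 0.089), without D60WT3 (adjusted p = 0.052), D60SV1, D60SV2 or D60SV3 (0.13, 0.052 and 0.068), or D80SV1 or D80SV2 (0.092 and 0.11). It was also lost without both libraries richest in duodenal and pancreatic transcripts (0.069). Maob fell (-0.57, SE 0.16, adjusted p = 0.016), a call lost with no composition factor (-0.21, adjusted p = 0.26) and without D60SV1 (adjusted p = 0.059) or D80SV3 (-0.39, adjusted p = 0.072). Maoa had a log2 fold change of 0.67 (adjusted p = 0.26).

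In wild-type mice edgeR called 0 genes between the ages, which does not show that the ages were alike. Of 5 sex transcripts tested, 0 were called, although Xist went from 0, 0 and 1 counts at D60 to 2218, 2768 and 2631 at D80. The D60 libraries were of male type and the D80 libraries of female type, so age and sex cannot be told apart here. Of the 8 genes, 0 passed between D80 and D60 in wild-type mice, where 0% of all genes passed; at an unadjusted p below 0.05 edgeR had 1925 genes, and DESeq2 called 254. Slc18a1 alone did not overlap between the ages (log2 fold change 1.25, adjusted p = 0.29; called with DESeq2, 1.23, adjusted p = 0.046), where 7.06% of all genes were higher without overlap and 4.55% lower. Without D80WT1, 396 genes and Ddc (1.39, adjusted p = 0.03) were called. The fold changes of Tph1 and Hdc were 0.57 (95% interval -0.05 to 1.19) and 0.30 (-0.28 to 0.89) on the log2 scale.

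The genotype difference itself was larger at D80 than at D60 for 3 of the 8 genes by the interaction of genotype and age, where 5% of all genes passed (2.77% higher, 2.23% lower; with no composition factor 79.3% of calls were higher, and 65.4% with upper-quartile factors, against 55.3% in the fit reported). They were Tph1 (3.85-fold larger, log2 1.95, SE 0.40, adjusted p = 0.021), Hdc (1.79, SE 0.33, adjusted p = 0.014) and Slc18a2 (1.66, SE 0.41, adjusted p = 0.043). The interaction was 0.77 for Ddc (adjusted p = 0.41), 0.63 for Lmx1a (0.62), -0.25 for Slc18a1 (0.81), -0.60 for Maob (0.14) and -0.08 for Maoa (0.96). The calls were sensitive to the libraries and the test. Tph1 was lost without D60SV3 (adjusted p = 0.063) or D80SV2 (0.061) and with sex as a covariate (2.56, adjusted p = 0.11). Hdc was lost without D60WT3 (0.051), with limma-voom (0.088) and with sex (2.06, adjusted p = 0.094). Slc18a2 was lost with limma-voom (0.054), with sex (adjusted p = 0.19), without both libraries richest in neighbouring tissue (0.072), and without D60WT1, D60WT2 or D60WT3 (0.052, 0.094 and 0.10), D80WT3 (0.075), D60SV1 or D60SV3 (0.086 and 0.11) or D80SV2 or D80SV3 (0.12 and 0.088). The count of all genes called was 768, and it was 390 and 312 without D60WT2 and D60WT3, 2419, 458 and 425 without D80WT1, D80WT2 and D80WT3, 193 without D60SV3, and 250 and 343 without D80SV2 and D80SV3. The plot of fold changes places the intervals side by side.

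**Figure D3:**
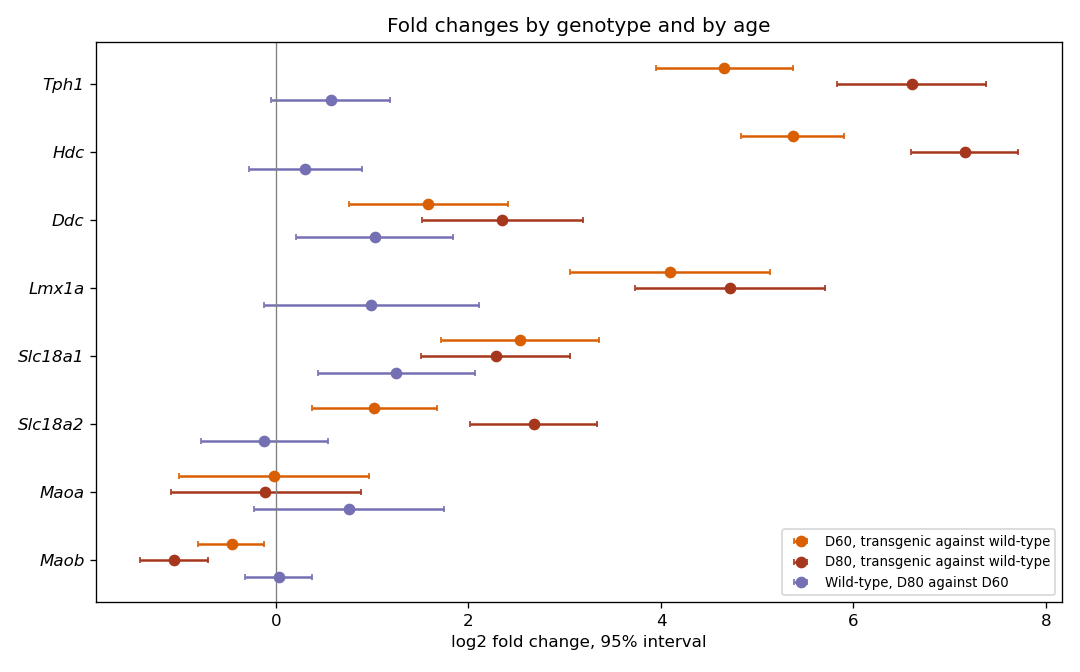
Log2 fold changes of the 8 tested genes with 95% intervals from the edgeR fit, for transgenic against wild-type mice at D60 and at D80 and for D80 against D60 in wild-type mice; the grey line marks no change. Tph1 and Hdc lie furthest to the right, at 6.61 and 7.16 at D80, Maoa lies on the line in both genotype comparisons, and Maob lies left of it.

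Levels can be compared between the genes once counts are divided by exon length. In D80 transgenic libraries the order was Tph1 at 711 ± 167 CPM per kilobase (SD, n = 3 here and below), Ddc at 154 ± 31.7, Hdc at 74.0 ± 16.1, Maob at 11.5 ± 2.26, Maoa at 11.4 ± 5.70, Lmx1a at 7.83 ± 0.634, Slc18a1 at 5.92 ± 1.03 and Slc18a2 at 3.98 ± 0.537. There the means of the neighbours Maob and Maoa lay within each other's SD, and the SDs of Maoa and Lmx1a overlapped. In D80 wild-type libraries the order was Ddc at 30.1 ± 20, Maob at 23.9 ± 0.997, Maoa at 12.3 ± 7.50, Tph1 at 7.31 ± 1.66, Slc18a1 at 1.21 ± 0.384, Slc18a2 at 0.621 ± 0.225, Hdc at 0.516 ± 0.0691 and Lmx1a at 0.298 ± 0.197. The neighbours from Ddc to Maob, from Maoa to Tph1 and from Slc18a1 down to Lmx1a had overlapping SDs. The order put the oxidases below the synthesis genes in D80 transgenic pylorus and above Tph1 and Hdc in D80 wild-type pylorus. At D60, Tph1 led in transgenic libraries (124 ± 18.8 CPM per kilobase) ahead of Ddc (44.3 ± 5.51), Hdc (17.3 ± 3.2) and Maob (17.0 ± 1.24). In D60 wild-type libraries Maob led (23.4 ± 4.08), ahead of Ddc (14.8 ± 1.29), Maoa (7.28 ± 0.598) and Tph1 (4.91 ± 1.93). Maoa's share of the oxidase pair, per kilobase, was 56.8%, 47.8% and 39.5% in D80 transgenic libraries, against 15.4%, 35.0% and 46.1% in D80 wild-type libraries. At D60 it was 26.1%, 28.1% and 34.7% in transgenic libraries, against 21.6%, 25.8% and 24.3% in wild-type libraries. The transcripts of Maoa and Maob share 5 stretches of 31 bases among 4137 and 2840, and those of Tph1 and Tph2, of Hdc and Ddc and of Slc18a1 and Slc18a2 share 0.

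The synthesis genes were set against Chga, the granule protein chromogranin A of neuroendocrine cells, by ratios of counts within a library, which do not depend on the scaling between libraries. There were 25.5, 23.8 and 24.5 Chga counts per Hdc count in D60 transgenic libraries, against 77.1, 66.7 and 72.8 in D60 wild-type libraries. At D80 there were 23.6, 22.9 and 23.2 in transgenic libraries, against 95.1, 113 and 80.4 in wild-type libraries. The ratio thus stayed between 22.9 and 25.5 in all 6 transgenic libraries, while the level of each gene was about 4-fold higher at D80 than at D60 (4.05-fold for Chga, 4.27-fold for Hdc). Chga counts per Tph1 count were 1.71, 1.71 and 1.73 in D60 transgenic libraries, against 2.88, 4.02 and 2.55 in D60 wild-type libraries. At D80 they were 1.41, 1.19 and 1.08 in transgenic libraries, against 4.47, 3.44 and 2.62 in wild-type libraries. Both amine-synthesis genes were therefore higher relative to Chga in every transgenic library than in any wild-type library. Ddc counts per Tph1 count were 0.168, 0.155 and 0.150 in D60 transgenic libraries and 1.60, 1.89 and 0.874 in D60 wild-type libraries. At D80 they were 0.108, 0.0936 and 0.0864 in transgenic libraries and 1.01, 1.51 and 2.56 in wild-type libraries.

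**Figure D4:**
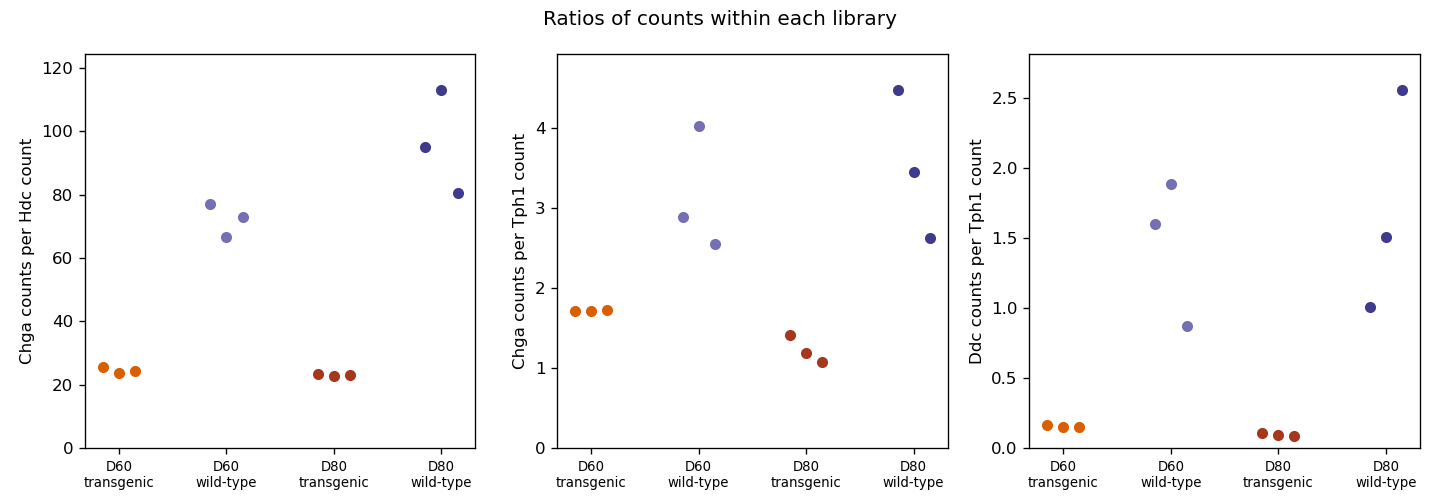
Counts of Chga per count of Hdc, of Chga per count of Tph1 and of Ddc per count of Tph1 in each library, by group, on linear axes from 0. The 6 transgenic libraries lie between 22.9 and 25.5 Chga counts per Hdc count, and all wild-type libraries lie above 66.

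Around the synthesis step, tetrahydrobiopterin, the cofactor of the tryptophan hydroxylases, has 8 genes, all of them tested. At D60, 0 of 8 passed. At D80, 3 rose and 1 fell, where 19.4% of all genes passed as higher and 22% as lower. The median log2 fold change of the cofactor genes at D80 was 0.43. Qdpr, which regenerates the cofactor, rose (148 ± 30.3 CPM in transgenic and 66.9 ± 0.525 CPM in wild-type libraries, n = 3 each; log2 fold change 1.15, adjusted p = 7.5e-05), as did Pcbd1 (0.70, adjusted p = 0.018). Spr, which completes its synthesis, fell (-0.63, adjusted p = 0.0032), a call lost with no composition factor (-0.22, adjusted p = 0.21). Gch1, the rate-limiting enzyme, had log2 fold changes of 0.27 at D60 and 0.39 at D80 (adjusted p = 0.72 and 0.24), and passed at D80 with no composition factor (0.83, adjusted p = 0.0077). Without D80WT2 or D80SV2, 1 of the 8 rose at D80, and without D80WT2, 2 fell. Of 6 tested genes of the competing kynurenine route, 0 passed at D60, and at D80 Haao rose (2.90, adjusted p = 0.044) and Tdo2 fell (-0.95, adjusted p = 0.039). Haao was lost without D80WT1, D60SV1 or D80SV2 or D80SV3, and Tdo2 without D60WT1, D60WT3, D80WT3, D60SV2, D60SV3 or any D80 transgenic library and with 2 other scalings (-0.79, adjusted p = 0.083, with upper-quartile factors and -0.54, adjusted p = 0.23, with no composition factor), while without D80WT1 2 genes were lower.

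Among the uptake carriers, 4 of 5 were tested, and Slc29a4, the low-affinity plasma membrane monoamine transporter, rose. The share of all tested genes that passed as higher was 3.66% at D60 and 19.4% at D80. It stood at 3.49 ± 1.03 CPM in D60 transgenic and 1.06 ± 0.577 CPM in D60 wild-type libraries (log2 fold change 1.70, adjusted p = 0.024), and at 18.4 ± 5.27 CPM in transgenic and 1.53 ± 0.182 CPM in wild-type libraries at D80 (3.58, adjusted p = 2.4e-05; n = 3 each). The D60 call was lost without D60WT1 or D60WT2 or D60SV2 or D60SV3. Slc6a4 had log2 fold changes of -0.25 at D60 (adjusted p = 0.96) and -0.73 at D80 (95% interval -2.66 to 1.2, adjusted p = 0.53). At D80, 1 carrier was lower without D80WT1 or D60SV1. The median log2 fold change of the 4 was -0.15 at D60 and -0.71 at D80.

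Receptor transcripts were rare. The calls below stand beside a share of 19.4% of all tested genes that passed as higher at D80. Of 14 serotonin receptor genes, 5 were tested, 0 passed at D60, and at D80 Htr7 rose (1.03 ± 0.208 CPM in transgenic and 0.0698 ± 0.0451 CPM in wild-type libraries, n = 3 each; log2 fold change 3.77, adjusted p = 0.00016). Htr5a had 212 counts in the D80 transgenic libraries and 0 in the D80 wild-type libraries, at least 53.6-fold higher against a floor of 3 counts over the group (adjusted p = 0.00036). Of 4 histamine receptor genes 2 were tested. Hrh2, the receptor through which histamine drives acid secretion, had 52 counts in transgenic and 7 in wild-type libraries at D80 (log2 fold change 2.42, adjusted p = 0.029), and its call was lost without D80WT1 or D80WT2 or D80SV2 or D80SV3.

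Of 6 tested genes that break amines down further, 0 passed at D60 and 2 fell at D80, the aldehyde dehydrogenases Aldh1a1 (log2 fold change -1.02, adjusted p = 0.0063) and Aldh2 (-0.83, adjusted p = 0.0067; with no composition factor -0.40, adjusted p = 0.055). Among all genes tested, 22% passed as lower at D80. Hnmt, the histamine methyltransferase, had values of -0.30 at D60 and -0.38 at D80 (adjusted p = 0.81 and 0.43). Aoc1, the diamine oxidase, listed under its older symbol Abp1, had values of 0.33 and -0.89 (adjusted p = 0.95 and 0.50). Catecholamine genes included none that passed as higher. Th, its first enzyme, stood at 1.15 ± 0.542 CPM in transgenic and 0.612 ± 0.184 CPM in wild-type libraries at D80 (n = 3 each; log2 fold change 0.90, 95% interval -0.16 to 1.95, adjusted p = 0.16; with no composition factor 1.33, adjusted p = 0.048). Dbh, which makes noradrenaline, had 11 counts in all in each D80 genotype and was not tested.

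Some markers of the cells that hold the amines rose with Tph1 and Hdc, and others did not pass the test. Of 11 tested enterochromaffin markers, 5 rose at D60 and 6 at D80, where 3.66% and 19.4% of all genes passed as higher, with median log2 fold changes of 0.91 and 1.97. Among those that did not pass at D80 were Tac1, the precursor of substance P (log2 fold change 0.12, adjusted p = 0.83), and Piezo2, a mechanosensitive channel (-0.16, adjusted p = 0.65; 0.24 with no composition factor), both chosen after their values were seen. Chga stood at 4110 ± 843 CPM in transgenic and 117 ± 4.88 CPM in wild-type libraries at D80 (log2 fold change 5.13, adjusted p = 2.1e-07). Chgb, a related granule protein, and Fev, a transcription factor of serotonin neurons, rose as well (6.07, adjusted p = 3e-07, and 4.88, adjusted p = 1.7e-06). Of 7 enterochromaffin-like markers, 2 rose at D60 and 3 rose and 1 fell at D80, with median log2 fold changes of 0.40 and 0.42. Cckbr, the gastrin receptor, stood at 23.4 ± 4.60 CPM in transgenic and 0.396 ± 0.120 CPM in wild-type libraries at D80 (n = 3 each; 5.86, adjusted p = 8e-07), and the lower marker, Vipr2 (-1.05, adjusted p = 0.018), was lost with no composition factor (-0.67, adjusted p = 0.16) and without D80WT1 or D80SV2 or D80SV3. Of 11 tested endocrine transcription factors, 6 rose at D60, and 8 rose and 2 fell at D80 (1 fell without D80WT3 or D80SV2). Isl1, which fell (-1.11), was lost with upper-quartile factors (-0.95, adjusted p = 0.052) and no composition factor (-0.69, adjusted p = 0.17). Nkx2-2 (4.19), Pax6 (3.98) and Neurod1 (4.99), which specify endocrine cells, had the smallest p-values at D80, each with an adjusted p of 2.9e-07. Which endocrine cell type holds the amine genes cannot be told from bulk RNA.

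Other cells that can hold histamine or serotonin were also measured, and their part in the Tph1 and Hdc results was not tested. Among all genes tested, 3.66% passed as higher at D60, and 19.4% as higher and 22% as lower at D80. The summed level of 13 mast cell markers was 75.7 to 147 CPM in D60 transgenic and 33.0 to 57.0 CPM in D60 wild-type libraries, and 145 to 162 CPM in transgenic and 54.9 to 61.8 CPM in wild-type libraries at D80. Of 8 tested, Cpa3 rose at D60 (log2 fold change 2.10, adjusted p = 0.025; 0 genes without D60WT1 or D60SV3, and 3 without D80WT1 or D60SV1). At D80, Kit (1.68, adjusted p = 0.0028), Mcpt2 (1.19, adjusted p = 0.0078) and Mcpt1 (1.97, adjusted p = 0.013) rose, and Kit also marks the pacemaker cells of gut muscle. Of the summed mast cell level at D80, Kit alone gave 70.7 to 100 CPM in transgenic and 24.9 to 28.5 CPM in wild-type libraries. Mcpt8 was at 0 in D60 transgenic and D80 wild-type libraries and Mrgprb2 in D60 wild-type libraries. Of 7 tested neutrophil markers, 0 passed at D60 and 6 rose at D80, with summed levels of 53.2 to 207 CPM in transgenic and 14.0 to 89.9 CPM in wild-type libraries at D80; Elane and Ngp were at 0 in the D80 wild-type libraries. Of the neutrophil sum at D80, Ltf alone, chosen after its values were seen, gave 38.5 to 67.1 CPM in transgenic and 11.8 to 88.5 CPM in wild-type libraries. Of 10 macrophage markers, 9 rose at D80, and 0 did at D60, where 5 did without D60WT2 or D60SV1, 1 without D80WT1 and 2 without D80WT3. Their summed level was 498 to 665 CPM in transgenic and 171 to 289 CPM in wild-type libraries at D80. Of 9 tested enteric neuron markers, 3 rose and 4 fell at D80, and 2 rose at D60 (1 without D60WT2 or D60WT3 or D60SV2). The 3 risers, Snap25, Elavl4 and Uchl1, are shared with endocrine cells, and the genes that fell included Nos1, Prph and Hand2, of which Hand2 (-1.05, adjusted p = 0.026) was lost with upper-quartile factors (-0.89, adjusted p = 0.061) and no composition factor (-0.64, adjusted p = 0.19). The summed neuron level was 190 to 291 CPM in transgenic and 88.8 to 99.7 CPM in wild-type libraries at D80, with no marker at 0. Without the 3 shared genes, a split made after the values were seen, the sum of the other 7 was lower, at 48.7 to 62.7 CPM in transgenic and 73.9 to 78.2 CPM in wild-type libraries. The genes left out were the 3 risers, so this sum cannot show whether neurons changed.

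The genes with the profile most like each of 4 members were sought by Pearson's r of log2 CPM over the 12 libraries, a description in which the groups and the libraries' scaling are shared. Tph1 was most like Chgb (r = 0.997), Lrrn1 (0.997), Chga (0.996) and Fev (0.994). Hdc was most like B3gat1 (0.997), Drd2 (0.996), Calcr (0.995) and Phyhipl (0.995). B3gat1, which makes the HNK-1 carbohydrate of neural cells, had 2222 counts in D80 transgenic libraries and 395 in D60 transgenic libraries, and 0 in all wild-type libraries. Drd2, a dopamine receptor, and Calcr, the calcitonin receptor, also had 0 counts in the wild-type libraries, with 1054 and 3863 counts in D80 transgenic libraries. Lmx1a was most like Nol4 (0.980), Chga (0.979), Cacna1a (0.977) and Actl6b (0.975), and Slc18a1, with lower likeness, was most like Pde11a (0.969), Rps6kl1 (0.968), Tcp11l1 (0.968) and Emr1, the older symbol of the macrophage gene Adgre1 (0.963).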

How the data were processed

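Bulk pylorus RNA was measured in 12 libraries. Per the labels' protocols, RNA came from fresh homogenized tissue and libraries from a stranded Illumina mRNA kit. The authors deposited raw counts per gene for 23420 symbols, with no normalization. Per the submitters' processing notes, the build was mm10 and the tools included HTSeq 0.9.1, STAR 2.5.3a and edgeR 3.16.5, with no roles given. Annotation and strand setting: not given in the sources used here. A deposited normalized table was not used.

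Counts were fitted in R 4.3.3 with edgeR 4.0.16 (filterByExpr, TMM factors of 0.805 to 1.3, quasi-likelihood test, 1 coefficient per group, 8 residual degrees of freedom), and Benjamini-Hochberg adjustment ran over 15369 genes, with a threshold of 0.05. The biological coefficient of variation was 24.2%. The tested genes held 99.975% of counts. Limma 3.58.1 (voom), DESeq2 1.42.0, other scaling factors and filters, a replicate block, sex as a covariate, the compared groups alone and leaving out libraries were alternatives. The pipeline was tested on simulated data. Intervals of fold changes include the spread between libraries, and floors cover counting error only.

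No pairing by replicate number was seen, with a mean residual correlation of -0.004 over 18 pairs with the same number (-0.344 to 0.393). A mean over so wide a range cannot exclude a pairing. No 2 libraries of the same group agreed within sampling noise, with chi-square per degree of freedom of at least 24.2. The members and all lists were chosen with earlier results of these data known. Named genes are the 9 members, up to 3 called genes with the smallest p-value per list and comparison, 8 pathway genes whatever their result (Slc6a4, Gch1, Hnmt, Aoc1, Th, Dbh, Chga and Cckbr), and the 4 genes most like each of Tph1, Hdc, Slc18a1 and Lmx1a. Further called genes of short lists are named to complete a count. Some called genes of these lists are not reported here. Exon lengths and promoter windows are from annotation and RefSeq tables on GRCm38. Lists of parietal, pancreatic and liver markers are summarized in the closing section.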

Additional observations from a re-analysis of the deposited data

Results flagged for a closer look

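The genotype difference was larger at D80 than at D60 for Tph1, by 1.95 on the log2 scale, for Hdc, by 1.79, and for Slc18a2, by 1.66, each by the test of the interaction itself in the edgeR fit. Each is a difference between the fold changes at the 2 ages, and each lost its call when single libraries were left out or with sex as a covariate, as given with the results.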

How the results depend on the processing

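Of 912 recomputed fold changes of the 8 genes, 869 stayed on their side of the threshold, 40 lost their call, 3 gained one and 0 called values changed sign, and 10 of the 40 pairs of gene and comparison changed side under any alternative. Genes called at D60 were 599, and 992 with DESeq2, 85 with sex as a covariate and 378 to 736 without 1 library; members called were 3 with sex and 4 to 5 without 1 library. At D80, 6354 genes were called, and 4416 to 7079 without 1 library, with 7 members each time. For D80 against D60 in transgenic mice, 5490 genes were called, and 3507 to 6594 without 1 library, with 5 to 7 members. In wild-type mice, D80 against D60, 0 genes were called, and 254 with DESeq2, 1 with sex, 5 with the compared groups alone, 7 without both libraries richest in neighbouring tissue and 0 to 396 without 1 library; 1 member was called with DESeq2, and 0 to 1 without 1 library. For the interaction, 768 genes were called, and 1745 with DESeq2, 423 with limma-voom, 99 with sex and 193 to 2419 without 1 library; members were 1 with limma-voom, 0 with sex and 1 to 3 without 1 library. The cause was not tested. Without length correction, Maoa's mean share of the oxidase pair was 42% in D60 transgenic, 35.15% in D60 wild-type, 61.24% in D80 transgenic libraries, against 43.92% in those of wild-type mice at D80. The replicate block gave 611 genes and 5 members at D60 and 5993 and 7 at D80, with all members on the same side of the threshold in every comparison. With 3 libraries per group, genes near the floor of 3 counts, such as Tph2, allow no comparison. Other scalings changed the split of all calls, as given with the results.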

Other observations

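Marker lists of other tissues gave these values at D80, where 19.4% of all genes tested passed as higher and 22% as lower. Of 8 tested parietal cell markers, 1 (Atp4a) rose and 3 fell (2 rose without D80WT1), and 0 passed at D60, where 1 rose without D80WT1, D60SV2 or D80SV1. Of 11 tested pancreatic acinar markers, 4 rose, with 9 without D80WT3 and 1 without D80WT2 or D80SV1. Of 6 tested hepatocyte markers, 4 rose and 1, Alb, fell (-1, adjusted p = 0.044 by edgeR), a call that was lost without D60WT1, D80WT1, D80WT3 or any transgenic library, and with RLE factors (-0.96, adjusted p = 0.052), upper-quartile factors (-0.84, adjusted p = 0.092) and no composition factor (-0.60, adjusted p = 0.22). Of 12 duodenal enterocyte markers, 0 passed at D60 or D80 with edgeR, and 3 fell at D80 without D80WT1.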
